A study of Mus musculus with 30 samples.

Results

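Imprinted genes are transcribed mainly from 1 parental copy, and 39 of them were described here across mouse epiblast stem cells (EpiSCs) of 4 genetic backgrounds and across definitive endoderm (DE) made from the same kind of cell. The genes came from a list of known mouse imprinted genes named by symbol, out of 29555 genes in the deposited gene tables. Their measured levels were not a criterion, but the list was chosen with earlier results of these data known. Of the 39, 33 had a row in the gene tables. The other 6, the non-coding RNAs H19, Meg3, Rian, Mirg, Kcnq1ot1 and Airn, were not analysed here at the transcript level, and only peaks of open chromatin near them were used.

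EpiSCs are cultured cells that represent the epiblast shortly before gastrulation, and all lines were at passages 5 to 10. The RNA libraries were 5 of C57BL/6 (B6) EpiSCs, 3 of PWK/PhJ (PWK) EpiSCs, 3 of B6.129 F1 hybrid EpiSCs, 1 of DBA/2J (DBA) EpiSCs and 4 of B6 DE. EpiSCs were kept on feeders in medium with Fgf2, Activin A and NVP-TNKS656, which blocks Wnt signalling, and were lifted with collagenase to leave feeders behind. DE was made with the Wnt agonist CHIR99201 (as spelled by the submitters) and Activin A for 16 h, then Activin A and the BMP inhibitor LDN193189 for 24 h, and CXCR4-positive cells were taken with magnetic beads. The stated differentiation time was 46 h, longer than these steps together. The labels do not say whether numbered replicates are separate lines, animals or cultures of 1 line, so p-values measure only the spread between these libraries, and line, culture and library cannot be told apart.

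At an imprinted gene, the egg and the sperm deliver chromosome copies that differ in DNA methylation at a control region, and the marked and unmarked copies are then read differently in the embryo. Many imprinted genes lie in clusters in which 1 control region governs several neighbours, some read from the maternal and some from the paternal copy. In cultured stem cells, loss of methylation or gain of it at a control region is known to leave whole clusters with no active copy or with both active. The counts used here do not separate the parental copies, so every value is the sum of both.

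Promoter sequences are given for 4 genes because the peaks over them are given library by library in the results that follow (chosen after their values were seen). Each 300-base window spans the RefSeq start on GRCm38.p6, with most of its bases before the start, and is written 5′ to 3′ on the gene's strand. Capitals mark the hexamer TGCCGC or its reverse complement GCGGCA, the core that the zinc finger protein ZFP57 recognises when methylated. It lay in the Plagl1 window and in none of the other 3 windows.
Kcnq1ot1, chr7:143296498-143296797, minus strand: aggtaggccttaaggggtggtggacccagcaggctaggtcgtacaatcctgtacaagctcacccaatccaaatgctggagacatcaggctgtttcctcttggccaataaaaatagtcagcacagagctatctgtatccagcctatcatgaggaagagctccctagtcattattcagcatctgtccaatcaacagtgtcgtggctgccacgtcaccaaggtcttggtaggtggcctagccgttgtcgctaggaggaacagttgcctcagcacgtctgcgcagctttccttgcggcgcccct
Ndn, chr7:62348027-62348326, plus strand: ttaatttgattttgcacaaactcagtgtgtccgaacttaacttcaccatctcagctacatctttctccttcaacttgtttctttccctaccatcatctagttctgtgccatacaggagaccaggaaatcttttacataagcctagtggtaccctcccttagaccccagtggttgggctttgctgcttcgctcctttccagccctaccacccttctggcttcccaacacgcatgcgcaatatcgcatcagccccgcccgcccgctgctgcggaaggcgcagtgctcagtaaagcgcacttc
Gnas (most upstream start), chr2:174284070-174284369, plus strand: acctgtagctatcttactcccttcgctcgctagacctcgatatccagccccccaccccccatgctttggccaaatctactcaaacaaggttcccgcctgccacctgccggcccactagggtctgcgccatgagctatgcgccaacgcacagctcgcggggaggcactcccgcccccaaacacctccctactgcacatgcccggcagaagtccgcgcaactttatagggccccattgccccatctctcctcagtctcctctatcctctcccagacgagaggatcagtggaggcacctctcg
Plagl1, chr10:13090582-13090881, plus strand: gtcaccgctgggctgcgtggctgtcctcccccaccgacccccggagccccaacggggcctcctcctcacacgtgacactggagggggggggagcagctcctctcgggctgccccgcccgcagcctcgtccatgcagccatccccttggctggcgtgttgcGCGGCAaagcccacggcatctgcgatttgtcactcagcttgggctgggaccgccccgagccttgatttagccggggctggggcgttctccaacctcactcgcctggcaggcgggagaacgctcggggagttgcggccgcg
The promoter table held 48 windows for 33 of the 39 genes. The hexamer, searched on both strands, was in 12 of the 48 (25.0%), belonging to 11 genes, against 11.6% of 32851 promoter windows of the same length. The median window of these genes held 13.5 CpG sites and that of all promoters 7.0. A match describes these letters only.

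Values are in CPM, read counts over a library size scaled across all 16 RNA libraries, which held 22829536 to 66563933 counts each. Values are always listed in the same order: replicates 1, 2, 4, 44 and 51 for B6 EpiSCs, BioRep698, BioRep695 and the library with no matched number for PWK, 4, 9 and the library with no matched number for B6.129 F1, and 2, 4, 44 and 51 for DE. Levels are not compared between genes, since CPM takes no account of length. Endoderm markers checked the labels: the summed CPM of 10 of them was 6509 to 13367 in DE and 36.8 to 361 in B6 EpiSCs, and 10 of 10 rose in DE. The 10 markers of primed pluripotency summed to 4162 to 5891 CPM in B6 EpiSCs. Markers of fibroblasts, the usual feeder cell, differed widely between libraries. The summed CPM of 20 fibroblast markers was 226, 2471, 1006, 2663 and 6061 in B6 EpiSCs, 4969, 6168 and 6530 in PWK, 586, 389 and 447 in B6.129 F1, 3161 in DBA, and 414, 157, 136 and 197 in DE. In bulk RNA, fewer cells of a type and less RNA per cell cannot be told apart.

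**Figure D1:**
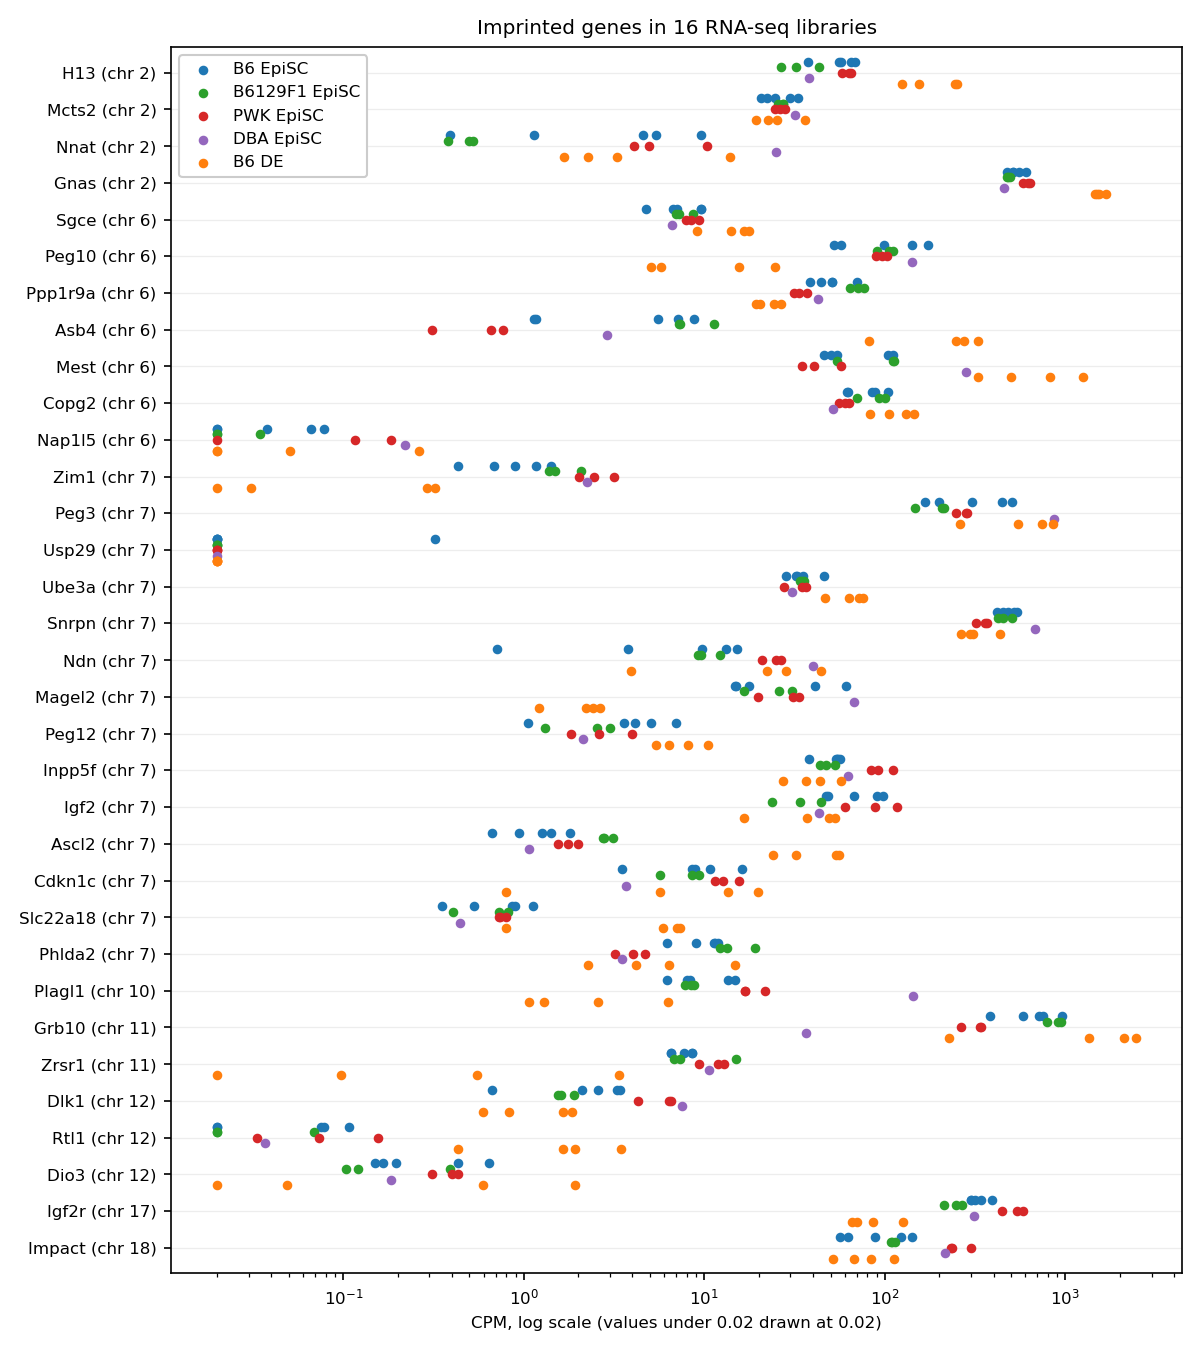
CPM (log axis) of the 33 measured imprinted genes, ordered by chromosome and position, with 1 point per RNA library coloured by group. Asb4 in DE lies between 81.8 and 326, against 1.14 to 8.79 in B6 EpiSCs, and the single DBA library stands apart at Plagl1 (143) and Grb10 (36.3).

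Endoderm differed from EpiSCs at 18 of the 31 imprinted genes tested, 10 higher and 8 lower. Among all 14085 genes tested, 31.5% were called higher and 30.6% lower, so the imprinted genes were called at shares near those of other genes. Their median log2 change was 0.33, against -0.01 over all genes. Of the 33 measured genes, Usp29 and Nap1l5 were too low to be tested, at no more than 0.323 and 0.261 CPM. The 10 that rose were Asb4, Ascl2, Rtl1, Mest, Slc22a18, H13, Gnas, Sgce, Ube3a and Copg2. The 8 that fell were Magel2, Peg10, Zrsr1, Zim1, Igf2r, Plagl1, Ppp1r9a and Snrpn. Of the 17 tested genes read from the paternal copy 3 rose and 5 fell, of the 8 read from the maternal copy 3 rose and 3 fell, and of the 6 whose active copy depends on tissue or isoform 4 rose and 0 fell. The groups of libraries did not overlap at 13 of the 31, beside 55.2% of all genes. Rtl1 and Zim1 reached the filter on low counts only in the libraries of the state where they were higher, so they could enter the test only with a difference. Without them 9 rose and 7 fell of 29, 2 rose and 5 fell of 16 paternal genes, 3 rose and 2 fell of 7 maternal genes, and 11 did not overlap. Of the 20 fibroblast markers, 17 were called lower in DE and 0 higher. Their sum was 136 to 414 CPM in DE and 226 to 6061 CPM in B6 EpiSCs. Cell state and fibroblast content thus changed together, and the part of the latter in the DE calls was not tested.

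Between strains, PWK differed from B6 EpiSCs at 11 of 30 imprinted genes tested, with 6 higher (Zim1, Impact, Dlk1, Inpp5f, Plagl1 and Igf2r) and 5 lower (Asb4, Phlda2, Grb10, Ppp1r9a and Snrpn). Of all 14822 genes tested, 12.0% were called higher and 14.5% lower. B6.129 F1 EpiSCs differed from B6 at 0 of the 30 by edgeR. Before adjustment, 9 of the 30 had an edgeR p below 0.05, beside 3614 of all 14822 genes. That count alone does not set the imprinted genes apart from other genes. DESeq2 called 1 of the imprinted genes higher and 4 lower, and its share over all genes is not given here. PWK differed from B6.129 F1 at 14 of the 30, 9 higher and 5 lower, beside 20.7% and 19.4% of all genes. Groups did not overlap at 13 of 30 for PWK against B6, at 4 of 30 for B6.129 F1 against B6 and at 19 of 30 for PWK against B6.129 F1, beside 32.0%, 14.9% and 62.6% of all genes. Comparisons that include the same group share its libraries. Of the 20 fibroblast markers, 20 were called higher in PWK than in B6.129 F1 and 1 higher than in B6. PWK libraries held 4969 to 6530 CPM of fibroblast markers, above the 226 to 2663 of 4 of the 5 B6 libraries. B6.129 F1 libraries held 389 to 586 CPM, all below PWK. Strain and fibroblast content therefore cannot be told apart between PWK and B6.129 F1, with or without a covariate. An alternative added after the data were seen took the log2 of the fibroblast marker sum as a covariate. With it PWK against B6 called 3 higher (Igf2r, Impact and Inpp5f) and 3 lower (Snrpn, Phlda2 and Grb10). PWK against B6.129 F1 called 2 higher and 2 lower. Shares over all genes with the covariate are not given here, so these losses cannot be set against those of other genes. All reads were set against the B6-derived mm10 reference, and the effect of PWK sequence differences on counting was not tested.

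**Figure D2:**
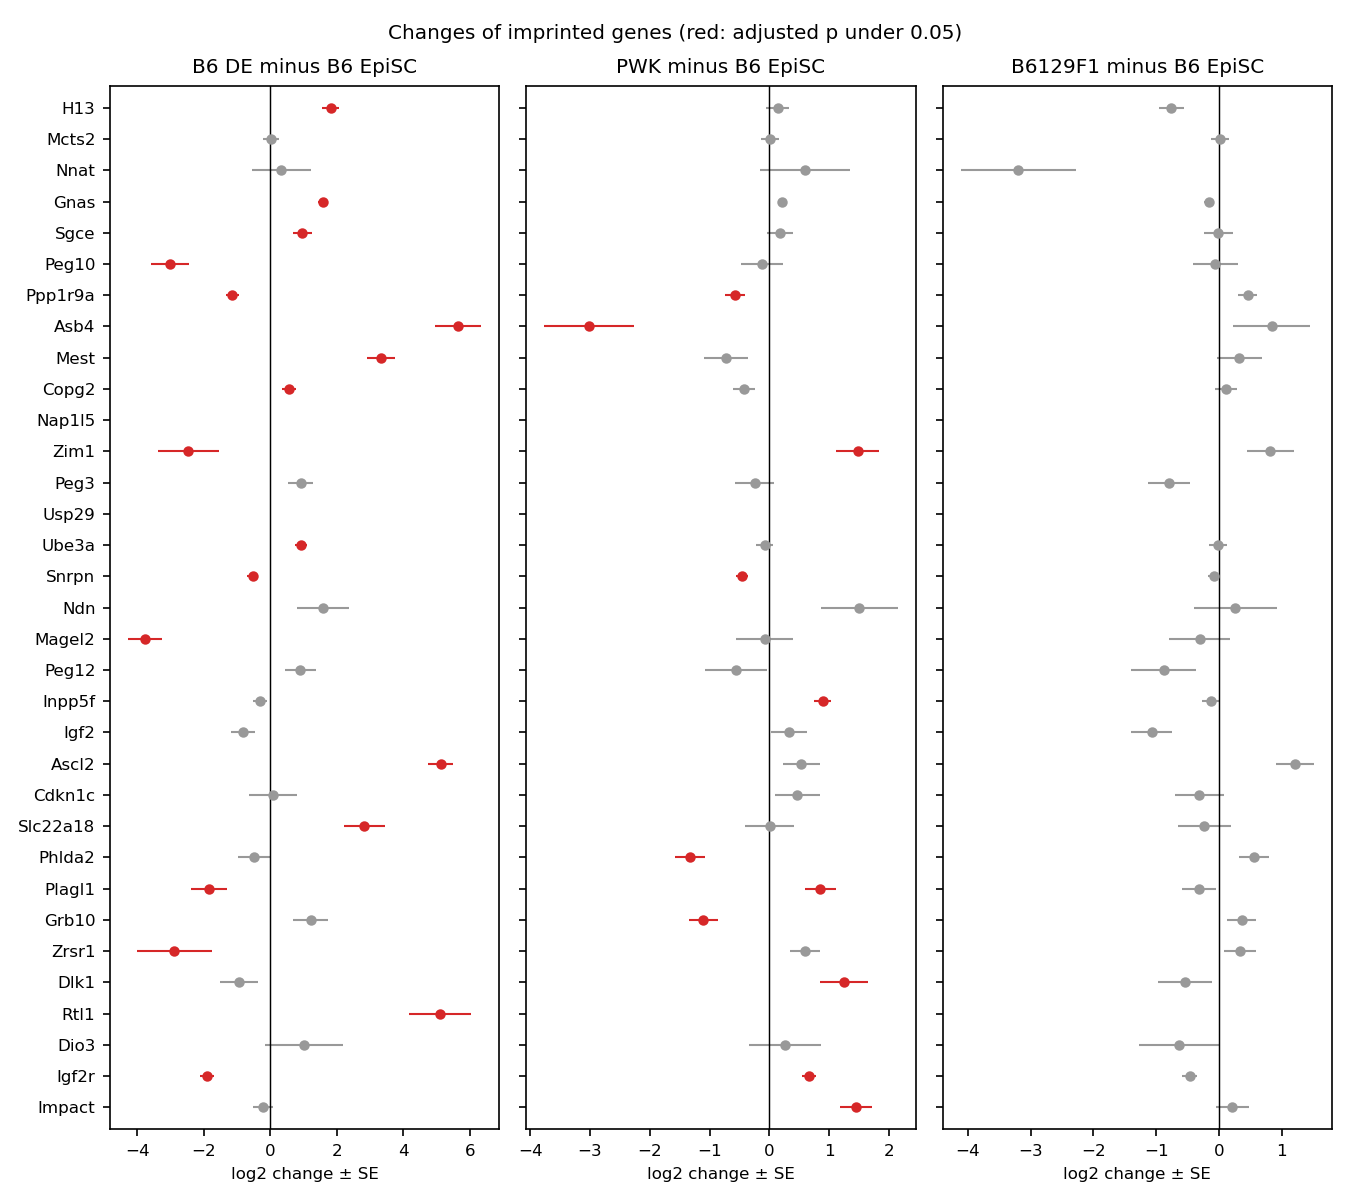
Log2 changes with standard errors for DE minus EpiSC in B6, PWK minus B6 EpiSC and B6.129 F1 minus B6 EpiSC (written B6129F1), 1 line per gene ordered by chromosome and position. Red marks an edgeR adjusted p under 0.05: 18 genes in the first panel, 11 in the second and 0 in the third.

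Within a strain, some imprinted genes varied several-fold between libraries of the same kind. A range was taken as the highest over the lowest library, with each library raised to at least 3 counts, for genes with at least 30 counts in the highest library. Among B6 EpiSCs, 7 of 29 such imprinted genes spanned at least 4-fold: Nnat 24.5-fold, Ndn 21.5-fold, Asb4 7.71-fold, Peg12 6.57-fold, Dlk1 5.13-fold, Cdkn1c 4.64-fold and Magel2 4.11-fold. The share over all genes was 13.1%, and the median range was 2.41-fold for the imprinted genes against 1.54-fold for all. Replicate 1 was the lowest library for Nnat, Ndn, Dlk1 and Cdkn1c, and it was also the library with the lowest fibroblast marker sum (226 CPM). In PWK 0 of 27 and in B6.129 F1 0 of 27 reached 4-fold, beside 1.51% and 2.09% of all genes. In DE 11 of 30 did, beside 19.3%, and without DE replicate 51 the count was 4. A range over fewer libraries cannot be wider for any gene, and the share of all genes without that library is not given here.

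**Figure D3:**
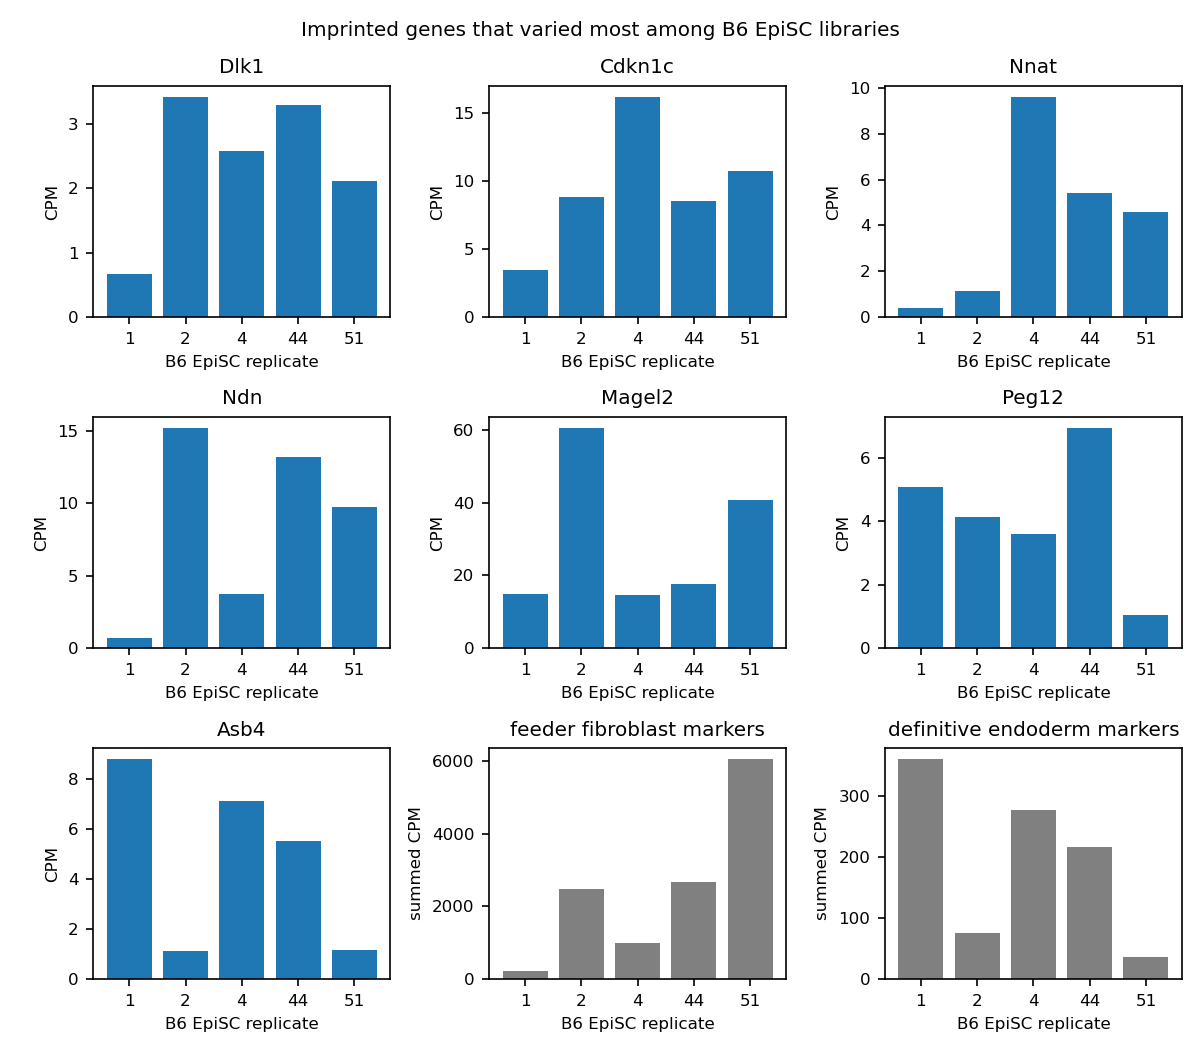
CPM of the 7 imprinted genes with a range of at least 4-fold among the 5 B6 EpiSC libraries, and the summed CPM of the fibroblast and endoderm marker lists in grey. Replicate 1 is lowest at Nnat (0.392), Ndn (0.706), Dlk1 (0.667) and Cdkn1c (3.49) and in the fibroblast sum (226), while Asb4 is lowest in replicates 2 (1.14) and 51 (1.17), which have the lowest endoderm sums (75.8 and 36.8).

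Asb4, Ppp1r9a, Peg10 and Sgce lie in 1 imprinted cluster on chromosome 6. Asb4 (chr6:5383386-5433022, maternal copy active) encodes a substrate-binding subunit of a ubiquitin ligase. It measured 8.79, 1.14, 7.13, 5.51 and 1.17 CPM in B6 EpiSCs and 248, 274, 326 and 81.8 CPM in DE. Every DE library was above every EpiSC library, with a log2 change of 5.64 ± 0.70 (SE) and an edgeR adjusted p of 6.74e-05. PWK EpiSCs held 0.768, 0.662 and 0.311 CPM, below all B6 libraries, and B6.129 F1 held 7.26, 7.32 and 11.3 CPM, inside or above the B6 range. PWK minus B6 gave a log2 change of -3.02 ± 0.75 (SE) and an edgeR adjusted p of 0.0138. That call was lost without PWK replicate BioRep695 (adjusted p = 0.0526), without the unnumbered PWK library (adjusted p = 0.0639) and with the fibroblast covariate (adjusted p = 0.0967). The endoderm marker sum was 361, 75.8, 277, 217 and 36.8 CPM in the B6 EpiSC libraries, 84.2, 157 and 108 in PWK and 109, 238 and 255 in B6.129 F1. Asb4 was low in the B6 libraries with the lowest endoderm sums, and the part of that sum in the result was not tested.

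Ppp1r9a (chr6:4902872-5165661), which encodes the actin-binding scaffold neurabin, is a maternally read gene of the same cluster. It measured 69.7, 51.1, 44.3, 51.0 and 38.5 CPM in B6 EpiSCs, 31.5, 37.0 and 33.5 in PWK and 71.3, 64.1 and 76.9 in B6.129 F1. DE held 19.3, 26.7, 20.2 and 24.4 CPM, below every EpiSC library, with a log2 change of -1.14 ± 0.19 (SE) and an edgeR adjusted p of 0.000444. PWK was below B6, with a log2 change of -0.58 ± 0.16 (SE) and an edgeR adjusted p of 0.0241, a call lost with the fibroblast covariate (adjusted p = 0.182) and without PWK BioRep698 (0.0922), BioRep695 (0.0547) or the unnumbered PWK library (0.0785). Peg10 (chr6:4747306-4760517), a retrotransposon-derived gene needed for the placenta, and Sgce, a sarcoglycan, are read from the paternal copy and share a promoter region. Peg10 fell from 141, 52.1, 173, 98.3 and 57.1 CPM in B6 EpiSCs to 5.07, 15.5, 5.74 and 24.5 CPM in DE, with no overlap and a log2 change of -3.01 ± 0.56 (SE) and an edgeR adjusted p of 0.000934. Sgce rose, from 4.76 to 9.60 CPM in EpiSCs to 9.11 to 17.7 CPM in DE, with a log2 change of 0.96 ± 0.29 (SE) and an edgeR adjusted p of 0.0143. The divergent pair thus moved in opposite directions between the cell states, and neither was called between strains.

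Mest (chr6:30733506-30748466), a paternally read member of the alpha/beta hydrolase family, and its neighbour Copg2, a coatomer subunit that overlaps it, also lie on chromosome 6. Mest measured 46.0, 54.1, 111, 104 and 50.2 CPM in B6 EpiSCs and 497, 819, 1244 and 326 CPM in DE. The groups did not overlap, with a log2 change of 3.33 ± 0.43 (SE) and an edgeR adjusted p of 8.94e-05. Its level was 57.2, 34.7 and 40.4 CPM in PWK and 54.6, 113 and 111 CPM in B6.129 F1, with neither strain called against B6. Copg2 rose in DE, with a log2 change of 0.55 ± 0.21 (SE) and an edgeR adjusted p of 0.0367, a call lost under 12 of 18 alternative settings, among them leaving out DE replicate 44 (adjusted p = 0.111). Whether strand was used in counting is not stated, so reads in the overlap cannot be assigned with certainty.

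Nnat (chr2:157560078-157562525), a small membrane protein of nervous tissue read from the paternal copy, had the widest range of these genes among B6 EpiSCs. It measured 0.392, 1.14, 9.60, 5.41 and 4.60 CPM in B6 EpiSCs. All 3 B6.129 F1 libraries were near the lowest B6 library, at 0.380, 0.497 and 0.524 CPM, and PWK lay at 10.3, 4.07 and 4.94 CPM. PWK against B6.129 F1 gave a log2 change of 3.79 ± 0.98 (SE) and an edgeR adjusted p of 0.0120. With the fibroblast covariate the log2 change was 2.79 (adjusted p = 0.313). B6.129 F1 against B6 gave a log2 change of -3.19 ± 0.92 (SE) and an edgeR adjusted p of 0.0803, which missed the threshold, while DESeq2 (adjusted p = 0.00146) and edgeR without B6 EpiSC replicate 1 (0.0169) called it. DE libraries held 3.27, 2.27, 13.9 and 1.67 CPM, overlapping EpiSCs.

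The cluster of Ndn, Magel2, Peg12, Snrpn and Ube3a on chromosome 7 corresponds to the human Prader-Willi and Angelman syndrome region. Ndn (chr7:62348277-62349928), which encodes the MAGE family protein necdin, measured 0.706, 15.2, 3.76, 13.2 and 9.76 CPM in B6 EpiSCs. Replicate 1 stood below the other 4. PWK libraries were higher than every B6 library at 20.8, 24.9 and 26.6 CPM, and the test gave a log2 change of 1.50 ± 0.65 (SE) and an edgeR adjusted p of 0.111. It was called without B6 replicate 1 (log2 change 1.21, edgeR adjusted p = 0.0316) and by DESeq2 (adjusted p = 0.0471), while the estimate was 0.20 with the fibroblast covariate (adjusted p = 0.819). Ndn was 9.61, 12.2 and 9.27 CPM in B6.129 F1 and 44.6, 22.2, 28.5 and 3.95 CPM in DE. Its paternally read neighbour Magel2 (chr7:62376979-62381640), another MAGE protein, held 15.0, 60.6, 14.7, 17.6 and 40.8 CPM in B6 EpiSCs and 1.22, 2.42, 2.20 and 2.64 CPM in DE, with no overlap and a log2 change of -3.77 ± 0.52 (SE) and an edgeR adjusted p of 0.000129. Peg12 (chr7:62461871-62464510), a relative of the Wnt pathway regulator Frat1, held 5.06, 4.13, 3.58, 6.93 and 1.05 CPM in B6 EpiSCs, with replicate 51 the lowest, and 8.14, 6.41, 5.42 and 10.5 CPM in DE. DE minus EpiSC gave a log2 change of 0.91 ± 0.46 (SE) and an edgeR adjusted p of 0.110. The 3 neighbours thus ordered the B6 libraries differently: replicate 2 was highest for Ndn and Magel2, and replicate 44 for Peg12.

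Snrpn, a splicing protein gene at the other end of the cluster, varied little among B6 EpiSCs, at 450.3, 542, 417, 478 and 521 CPM. PWK libraries were all lower, at 318, 361 and 368 CPM, with a log2 change of -0.46 ± 0.10 (SE) and an edgeR adjusted p of 0.00551, and B6.129 F1 held 505, 453 and 422 CPM. DE held 309, 265, 295 and 433 CPM, with 1 library inside the EpiSC range and a log2 change of -0.53 ± 0.16 (SE) and an edgeR adjusted p of 0.0145. Ube3a, a ubiquitin ligase whose active copy depends on the tissue, rose from 28.3 to 45.8 CPM in EpiSCs to 46.9 to 75.7 CPM in DE, with a log2 change of 0.92 ± 0.18 (SE) and an edgeR adjusted p of 0.00119.

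Cdkn1c, Phlda2, Slc22a18 and Ascl2 belong to the cluster of distal chromosome 7 that the paternally read RNA Kcnq1ot1 silences on the paternal copy. Cdkn1c (chr7:143458339-143461059), an inhibitor of the cell cycle, measured 3.49, 8.85, 16.2, 8.55 and 10.8 CPM in B6 EpiSCs and 19.8, 5.70, 13.5 and 0.799 CPM in DE. DE replicate 51 was far below the other 3, and DE minus EpiSC gave a log2 change of 0.09 ± 0.72 (SE) and an edgeR adjusted p of 0.919. PWK held 11.4, 12.7 and 15.6 CPM and B6.129 F1 held 5.67, 9.31 and 8.54 CPM. Phlda2 (chr7:143501545-143503145), which restrains placental growth, measured 6.20, 11.2, 11.4, 9.01 and 11.8 CPM in B6, 4.02, 3.21 and 4.67 in PWK and 12.2, 19 and 13.3 in B6.129 F1. All PWK libraries were below all B6 libraries, with a log2 change of -1.32 ± 0.25 (SE) and an edgeR adjusted p of 0.00336, and the call held with the fibroblast covariate (adjusted p = 0.00257). PWK minus B6.129 F1 gave a log2 change of -1.88 ± 0.28 (SE) and an edgeR adjusted p of 0.000611. In DE it was 14.8, 6.34, 4.16 and 2.26 CPM. Thus Phlda2 differed between strains while Cdkn1c, in the same cluster, was not called (adjusted p = 0.382 for PWK against B6).

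Slc22a18 (chr7:143473726-143499334), a membrane transporter, measured 0.864, 0.354, 0.896, 0.528 and 1.13 CPM in B6 EpiSCs and 5.90, 7.37, 7.03 and 0.799 CPM in DE, with a log2 change of 2.83 ± 0.63 (SE) and an edgeR adjusted p of 0.00274. DE replicate 51 was inside the EpiSC range and the other 3 above it. Slc22a18 held 0.732, 0.794 and 0.739 CPM in PWK and 0.726, 0.817 and 0.403 CPM in B6.129 F1. Ascl2 (chr7:142966822-142969264), a basic helix-loop-helix factor of the trophoblast and of intestinal stem cells, measured 0.667, 1.81, 1.25, 1.42 and 0.942 CPM in EpiSCs and 55.8, 53.6, 24.0 and 32.2 CPM in DE. All DE libraries were above all EpiSC libraries, with a log2 change of 5.12 ± 0.37 (SE) and an edgeR adjusted p of 2.64e-06. The summed CPM of 10 trophoblast markers was 137 to 356 in DE and 4.45 to 15.6 in B6 EpiSCs, with 3 or 4 of the 10 at 0 in each DE library, and its part in the result was not tested. B6.129 F1 held 2.77, 3.13 and 2.74 CPM against 1.76, 1.56 and 1.98 in PWK. B6.129 F1 minus B6 gave a log2 change of 1.22 ± 0.30 (SE) and an edgeR adjusted p of 0.0566, and was called by DESeq2 (adjusted p = 0.00243) and without B6 EpiSC replicate 1 (edgeR adjusted p = 0.0255) or replicate 2 (0.0307).

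Igf2 and Igf2r are the growth factor of distal chromosome 7 and, on chromosome 17, the receptor that clears it. Igf2 (chr7:142650768-142666816) measured 47.1, 48.6, 98.1, 90.3 and 67.7 CPM in B6 EpiSCs, 60.2, 116 and 88.2 in PWK and 34.0, 23.6 and 44.1 in B6.129 F1. The B6.129 F1 libraries were below all B6 and PWK libraries. PWK against B6.129 F1 gave a log2 change of 1.40 ± 0.35 (SE) and an edgeR adjusted p of 0.0105. Under the fibroblast covariate the log2 change was 1.02 (adjusted p = 0.265). Igf2 was 49.1, 37.1, 53.3 and 16.7 CPM in DE, with a log2 change of -0.82 ± 0.36 (SE) and an edgeR adjusted p of 0.0674. Igf2r (chr17:12682406-12769706), read from the maternal copy in most tissues, measured 299.5, 298, 315, 343 and 391 CPM in B6, 444, 581 and 536 in PWK and 267, 213 and 247 in B6.129 F1. The 3 strains did not overlap. PWK minus B6 gave a log2 change of 0.66 ± 0.12 (SE) and an edgeR adjusted p of 0.00217, which kept its call with the fibroblast covariate (adjusted p = 0.0189), and PWK minus B6.129 F1 gave a log2 change of 1.12 ± 0.14 (SE) and an edgeR adjusted p of 0.000183. DE held 70.0, 126, 85.7 and 65.6 CPM, all below EpiSCs, with a log2 change of -1.90 ± 0.20 (SE) and an edgeR adjusted p of 2.55e-05. The receptor fell in DE, while the call of its ligand depended on the setting: Igf2 was lower in DE by DESeq2 (adjusted p = 0.0373), with total library size (0.0408) and with a minimum of 10 counts in every library (0.0483), and adjusted p = 0.122 without DE replicate 51.

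Dlk1, Rtl1 and Dio3 are the paternally read coding genes of a cluster on chromosome 12. Dlk1 (chr12:109452485-109463336), a membrane protein related to Notch ligands, measured 0.667, 3.42, 2.58, 3.30 and 2.11 CPM in B6 EpiSCs, 4.28, 6.39 and 6.54 in PWK and 1.56, 1.60 and 1.89 in B6.129 F1. PWK was above both, with a log2 change of 1.25 ± 0.41 (SE) and an edgeR adjusted p of 0.0451 over B6. The call was lost under 8 of 15 alternative settings, among them leaving out the unnumbered PWK library (adjusted p = 0.143), and adjusted p = 0.418 with the fibroblast covariate. Dlk1 was 0.83, 0.592, 1.65 and 1.84 CPM in DE. Rtl1 (chr12:109564900-109604418), a retrotransposon-derived gene of the placenta, had at most 3 counts in any B6 EpiSC library and 1.66, 1.91, 0.432 and 3.47 CPM in DE. DE was at least 16.9-fold higher, against a floor of 3 counts per EpiSC library. Rtl1 reached the filter on low counts only in DE, so it could enter the test only with a difference. Dio3, which inactivates thyroid hormone, stayed low, at up to 1.93 CPM in DE and up to 0.645 CPM in EpiSCs, and was not called.

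In the Peg3 cluster of proximal chromosome 7, Peg3 and Zim1 both encode zinc finger proteins. Zim1 (chr7:6674444-6696540), read from the maternal copy, measured 0.432, 1.42, 0.681, 0.891 and 1.17 CPM in B6 EpiSCs, 2.45, 3.18 and 2.02 in PWK and 1.38, 2.06 and 1.49 in B6.129 F1. PWK was above all B6 libraries, with a log2 change of 1.47 ± 0.36 (SE) and an edgeR adjusted p of 0.0132. That call was lost without PWK BioRep695 (adjusted p = 0.0644) and with the fibroblast covariate (adjusted p = 0.101). DE libraries held 0.292, 0.321, 0 and 0.0307 CPM, below every B6 EpiSC library. Zim1 reached the filter on low counts only in EpiSCs, so it could enter that test only with a difference, and no fold is given. Its call as lower in DE was lost under 9 of 17 alternative settings, among them leaving out DE replicate 51 (edgeR adjusted p = 0.0774). Peg3, read from the paternal copy, spanned 167 to 503 CPM in B6 EpiSCs and 261 to 849 CPM in DE, with a log2 change of 0.91 ± 0.39 (SE) and an edgeR adjusted p of 0.0635. The test called it without DE replicate 2 (log2 change 1.16, adjusted p = 0.0174) and without EpiSC replicate 1 (1.11, 0.0376).

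Grb10 and Plagl1 each sit in a small imprinted domain. Grb10 (chr11:11930499-12037428), an adaptor that dampens insulin and growth factor signals, is read from the maternal copy in most tissues and from the paternal copy in neurons. It measured 959.9, 583, 751, 712 and 384 CPM in B6 EpiSCs, 336, 339.9 and 266 in PWK and 908, 793 and 947 in B6.129 F1. PWK libraries were below all B6 and B6.129 F1 libraries, with a log2 change of -1.11 ± 0.24 (SE) and an edgeR adjusted p of 0.00677 against B6, and a log2 change of -0.62 (adjusted p = 0.0316) with the fibroblast covariate. Against B6.129 F1 the log2 change was -1.47 (adjusted p = 0.00185) and, with the covariate, -0.63 (adjusted p = 0.122). DE held 1345, 2123, 2463 and 227 CPM. The first 3 DE libraries were above all B6 EpiSC libraries and replicate 51 below them, and DE minus EpiSC gave a log2 change of 1.21 ± 0.52 (SE) and an edgeR adjusted p of 0.0656. Without DE replicate 51 the log2 change was 1.58 (adjusted p = 0.00124), and DESeq2 called all libraries together (1.17, adjusted p = 0.0421). Plagl1 (chr10:13090832-13131694), a zinc finger factor read from the paternal copy, measured 8.36, 8.06, 13.5, 6.24 and 14.9 CPM in B6, 21.6, 16.9 and 16.8 in PWK and 7.85, 8.42 and 8.74 in B6.129 F1. PWK was above both, with a log2 change of 0.85 ± 0.26 (SE) and an edgeR adjusted p of 0.0347 over B6, and the call was lost under 8 of 15 alternative settings, among them the fibroblast covariate (adjusted p = 0.158) and leaving out any PWK library (BioRep698 0.140, BioRep695 0.0744, the unnumbered library 0.0748) or B6 replicate 1 (0.0607), 2 (0.0624) or 44 (0.0530). DE held 1.07, 2.57, 1.30 and 6.30 CPM, with replicate 51 the highest and a log2 change of -1.83 ± 0.54 (SE) and an edgeR adjusted p of 0.0132.

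Impact, on chromosome 18, restrains the translation stress kinase Gcn2 and is read from the paternal copy. It measured 88.7, 122, 56.4, 62.5 and 141 CPM in B6, 299, 236 and 232 in PWK and 114, 108 and 110.1 in B6.129 F1. All PWK libraries were above all others, with a log2 change of 1.44 ± 0.26 (SE) and an edgeR adjusted p of 0.00263 against B6. Inpp5f (chr7:128611181-128696436), an inositol phosphatase with an imprinted short isoform, measured 56.6, 37.9, 55.2, 53.3 and 54.6 CPM in B6, 111, 83.6 and 91.2 in PWK and 47.1, 43.6 and 53.0 in B6.129 F1. PWK was again above the rest, with a log2 change of 0.89 ± 0.14 (SE) and an edgeR adjusted p of 0.00100, and both calls against B6 held with the fibroblast covariate (adjusted p = 0.0231 for Impact and 0.00408 for Inpp5f). Against B6.129 F1, Impact went from a log2 change of 1.23 (adjusted p = 0.00997) to 0.77 with the covariate (adjusted p = 0.262), a lost call, and Inpp5f from 1.01 (0.000883) to 1.15 (0.0139). Neither gene was called in DE, where Impact spanned 51.9 to 112 CPM and Inpp5f 27.3 to 56.8 CPM. Zrsr1 (chr11:22972005-22976496), a splicing factor relative inside an intron of Commd1, fell in DE from 6.55, 6.57, 8.57, 7.72 and 8.55 CPM to 0.0975, 3.35, 0.550 and 0 CPM, with a log2 change of -2.88 ± 1.13 (SE) and an edgeR adjusted p of 0.0465. That call was lost under 10 of 17 alternative settings, among them leaving out DE replicate 44 (adjusted p = 0.103).

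Gnas and H13 produce several transcripts, only some of which are imprinted, and counts sum them. Gnas (chr2:174284320-174346744), the G protein subunit that activates adenylyl cyclase, measured 477, 509.6, 604, 554 and 509.7 CPM in B6 EpiSCs and 1531, 1683, 1492 and 1464 CPM in DE, with no overlap and a log2 change of 1.57 ± 0.12 (SE) and an edgeR adjusted p of 3.53e-06. PWK held 585, 624 and 640.1 CPM and B6.129 F1 493, 479.7 and 473 CPM. Between them the log2 change was 0.38 ± 0.09 (SE), with an edgeR adjusted p of 0.00715. With the fibroblast covariate it was 0.30 (adjusted p = 0.182). H13 (chr2:152669422-152708668), a protease of signal peptides, rose in DE from 64.7, 55.8, 37.3, 57.1 and 68.3 CPM to 243, 154, 251 and 124 CPM, with a log2 change of 1.81 ± 0.25 (SE) and an edgeR adjusted p of 0.000137. It was 64.8, 58.2 and 63.3 CPM in PWK and 26.6, 43.3 and 32.0 CPM in B6.129 F1. Between them the log2 change was 0.89 ± 0.22 (SE), with an edgeR adjusted p of 0.00843. With the covariate it was 0.86 (adjusted p = 0.117). Mcts2, inside an intron of H13, was 19.4 to 36.0 CPM in DE and 20.7 to 33.0 CPM in B6 EpiSCs and was called in no comparison.

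The DBA library was 1 sample, so it was set beside the 5 B6 EpiSC values with no test. Among imprinted genes, 5 lay more than 2-fold above the highest B6 library, a place held by 1.29% of all genes. Plagl1 was 143 CPM, 9.64-fold above the highest B6 value. Ndn was 40.1 CPM (2.64-fold), Nnat 25.0 CPM (2.61-fold), Mest 282 CPM (2.55-fold) and Dlk1 7.50 CPM (2.19-fold). All 5 are read from the paternal copy, as are 15 of the 29 genes with enough counts. Of those 15, 10 were above the highest B6 library, 4 within the B6 range (Peg10 and Sgce among them) and 1, Igf2, below it. Of 8 maternally read genes 1 was above, 1 below and 6 within, and of the 6 whose active copy varies 1 was above, 3 below and 2 within. The share of all genes that lay merely above or below the B6 range was not counted. No pattern by parental copy can therefore be read from these tallies of 1 library. Grb10, at 36.3 CPM, was 10.6-fold below the lowest B6 library and the only one of these genes more than 2-fold under the B6 range, where 1.36% of all genes lay. The DBA library held 3161 CPM of fibroblast markers, inside the B6 range of 226 to 6061. The title of that library also carries BioRep698, the number of a PWK replicate, and its Plagl1 and Grb10 values were outside the PWK range too, at 16.8 to 21.6 and 266 to 340 CPM.

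**Figure D4:**
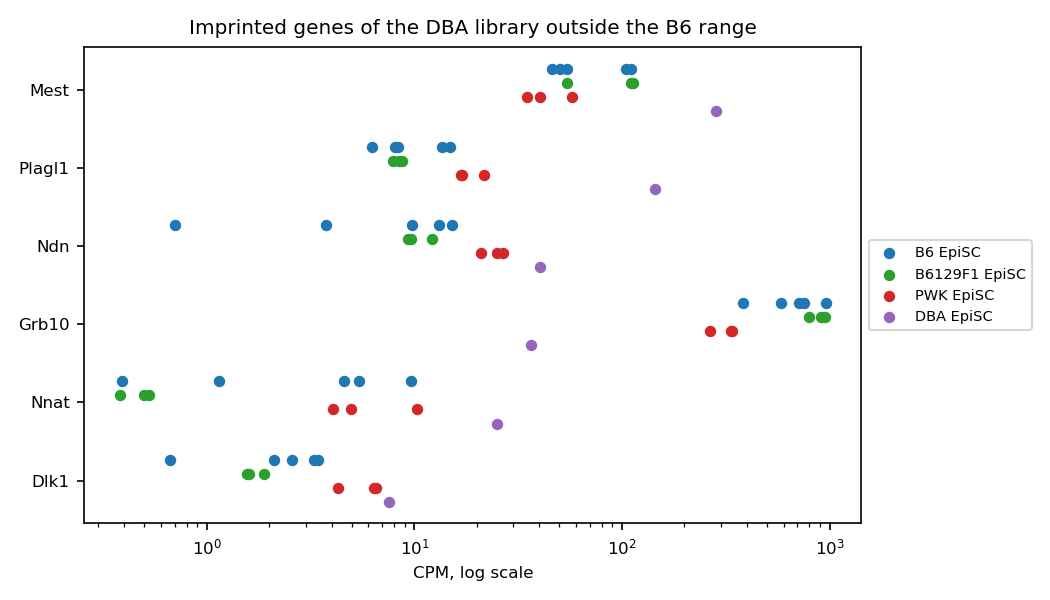
CPM (log axis) of the 6 imprinted genes at which the DBA EpiSC library lay more than 2-fold outside the range of the 5 B6 EpiSC libraries, with 1 point per EpiSC library. DBA is the highest point at Plagl1 (143), Mest (282), Ndn (40.1), Nnat (25.0) and Dlk1 (7.50) and the lowest at Grb10 (36.3).

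DE replicate 51 stood apart from the other 3 DE libraries at many of these genes, a description of 1 library with no test. Of 17 paternally read genes with enough counts it was above the other 3 at 9, below at 6 and within at 2. Of 7 maternally read genes it was above at 0, below at 5 (Igf2r, Cdkn1c, Phlda2, Slc22a18 and Asb4) and within at 2. Of the 6 whose active copy varies it was above at 0, below at 3 (Grb10, Gnas and H13) and within at 3. Over all genes 23.4% were above and 19.1% below. The ratio to the mean of the other 3 libraries was 0.0615 for Cdkn1c, 0.115 for Grb10, 0.118 for Slc22a18 and 0.124 for Ndn, against 3.83 for Plagl1 and 2.79 for Peg10. The EpiSC library of replicate 51 was likewise the lowest of the 5 B6 libraries for Grb10 (384 CPM) and the highest for Plagl1 (14.9 CPM). For Slc22a18 it was the highest (1.13 CPM), unlike in DE, and it lay inside the range of the others for Cdkn1c (10.8 CPM), Ndn (9.76 CPM) and Peg10 (57.1 CPM). DE replicate 51 also had the lowest endoderm marker sum of the 4 (6509 CPM against 9437 to 13367) and the largest total count (66563933), and their part in these values was not tested. Over the 4 numbers present in both states, the same replicate was highest in both at 7 of 28 imprinted genes and lowest in both at 8 of 28, beside 26.6% and 24.8% of all genes.

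Chromatin accessibility was read from ATAC-seq peaks within 2000 bases of an end of a listed gene. The B6 table held 4 EpiSC and 4 DE libraries of 3751526 to 9311622 counts, and 56 such peaks lay near 34 of the 39 genes. Of 51 tested, 11 were higher and 8 lower in DE, against 32.6% and 25.0% of all peaks. The rise with the lowest p lay inside Asb4, near its start, at chr6:5385300-5385582, from 3.02, 5.60, 2.43 and 2.95 CPM in EpiSC replicates 1, 4, 44 and 51 to 25.6, 26.9, 21.9 and 32.3 CPM in DE replicates 2, 4, 44 and 51. The log2 change was 2.83 ± 0.25 (SE), with an edgeR adjusted p of 1.57e-08, in the same direction as the Asb4 transcript. A second Asb4 peak, just before the start (chr6:5382672-5382819), was lower in DE, from 4.07, 4.65, 5.10 and 4.57 CPM to 0.788, 2.52, 2.17 and 1.67 CPM, with no overlap, a log2 change of -1.33 ± 0.40 (SE) and an edgeR adjusted p of 0.00755. A peak in H13 (chr2:152669829-152670299) rose from 14.0, 13.7, 21.4 and 13.7 CPM to 54.6, 40.3, 55.5 and 37.3 CPM, with an edgeR log2 change of 1.59 ± 0.18 (SE) and adjusted p = 3.73e-07, also as its transcript did. A peak past the far end of Igf2r (chr17:12681878-12682011) was higher in DE (edgeR log2 change 2.31 ± 0.60, SE, adjusted p = 0.00224), although Igf2r RNA fell. The Copg2 promoter peak (chr6:30896711-30897100) rose from 9.20, 12.4, 9.23 and 9.00 CPM to 18.7, 17.5, 17.7 and 20.6 CPM, with an edgeR log2 change of 0.87 ± 0.20 (SE) and adjusted p = 0.000929. The other higher peaks lay at or near Ube3a (log2 change 0.44, adjusted p = 0.00372), Peg12 (1.48, 0.0177), inside Peg3 near its start (0.46, 0.0336), at the far end of H13 (0.45, 0.0359), Dlk1 (0.98, 0.0388), Mest (0.99, 0.0407) and Ppp1r9a (0.50, 0.0447). Lower in DE were peaks at or near Mirg (chr12:109749783-109750214, log2 change -1.12, adjusted p = 0.000169), Zim1 (chr7:6696416-6696658, -0.90, 0.00672), Impact (-1.29, 0.0109), Dio3 (-0.82, 0.0296), the most upstream Gnas promoter (chr2:174284127-174284313, -1.09, 0.0380) and a pair at the shared promoter region of Peg10 and Sgce (chr6:4747359-4747427, -1.26, 0.0216, and chr6:4747085-4747171, -0.99, 0.0489). The Peg12, Peg3, Mest, Dlk1 and Ppp1r9a calls were each lost when single libraries were left out, DE replicate 2 among them. The Ube3a call was lost without EpiSC replicate 51 (adjusted p = 0.0639), the stronger Peg10 call without DE replicate 44 (0.0686), and the Dio3 call without DE replicate 44 (0.0501) or 51 (0.0567). The Gnas call was lost without DE replicate 51 or EpiSC replicate 1, and leaving out single libraries left 4 to 9 higher and 5 to 11 lower peaks.

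Single libraries differed at the promoters whose sequences are printed above. The Kcnq1ot1 promoter peak (chr7:143296457-143296826) measured 13.3, 12.0, 37.7 and 14.6 CPM in EpiSC replicates 1, 4, 44 and 51 and 9.46, 7.87, 16.0 and 40.0 CPM in DE replicates 2, 4, 44 and 51. Replicate 44 was the highest of the EpiSC libraries and replicate 51 the highest of the DE libraries, the state in which its RNA library had the lowest Cdkn1c, Phlda2 and Slc22a18 levels. Ascl2 of the same cluster was 32.2 CPM in that RNA library, inside the range of the other DE libraries (24.0 to 55.8 CPM). In the EpiSC libraries Cdkn1c RNA of replicate 44 was 8.55 CPM, inside the range of the others. The Ndn promoter peak was 1.51, 0.759, 16.8 and 2.65 CPM in EpiSCs and 8.08, 3.94, 5.96 and 1.67 CPM in DE. EpiSC replicate 44 was the highest, and DE replicate 51 was the lowest DE library for both this peak and the Ndn transcript. The Gnas upstream promoter peak was 9.05, 7.88, 1.94 and 11.7 CPM in EpiSCs, lowest in replicate 44, and 4.33, 4.72, 4.20 and 0.834 CPM in DE, lowest in replicate 51. The Plagl1 promoter peak was 5.28, 6.93, 11.2 and 14.5 CPM in EpiSCs and 5.71, 5.20, 4.60 and 7.78 CPM in DE. The libraries that were highest at Kcnq1ot1 were thus the lowest at Gnas in each state, and they were also the shallowest of each state (4006296 and 3751526 counts), whose part in this was not tested. Whether RNA and ATAC libraries of 1 number came from 1 culture is not stated.

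**Figure D5:**
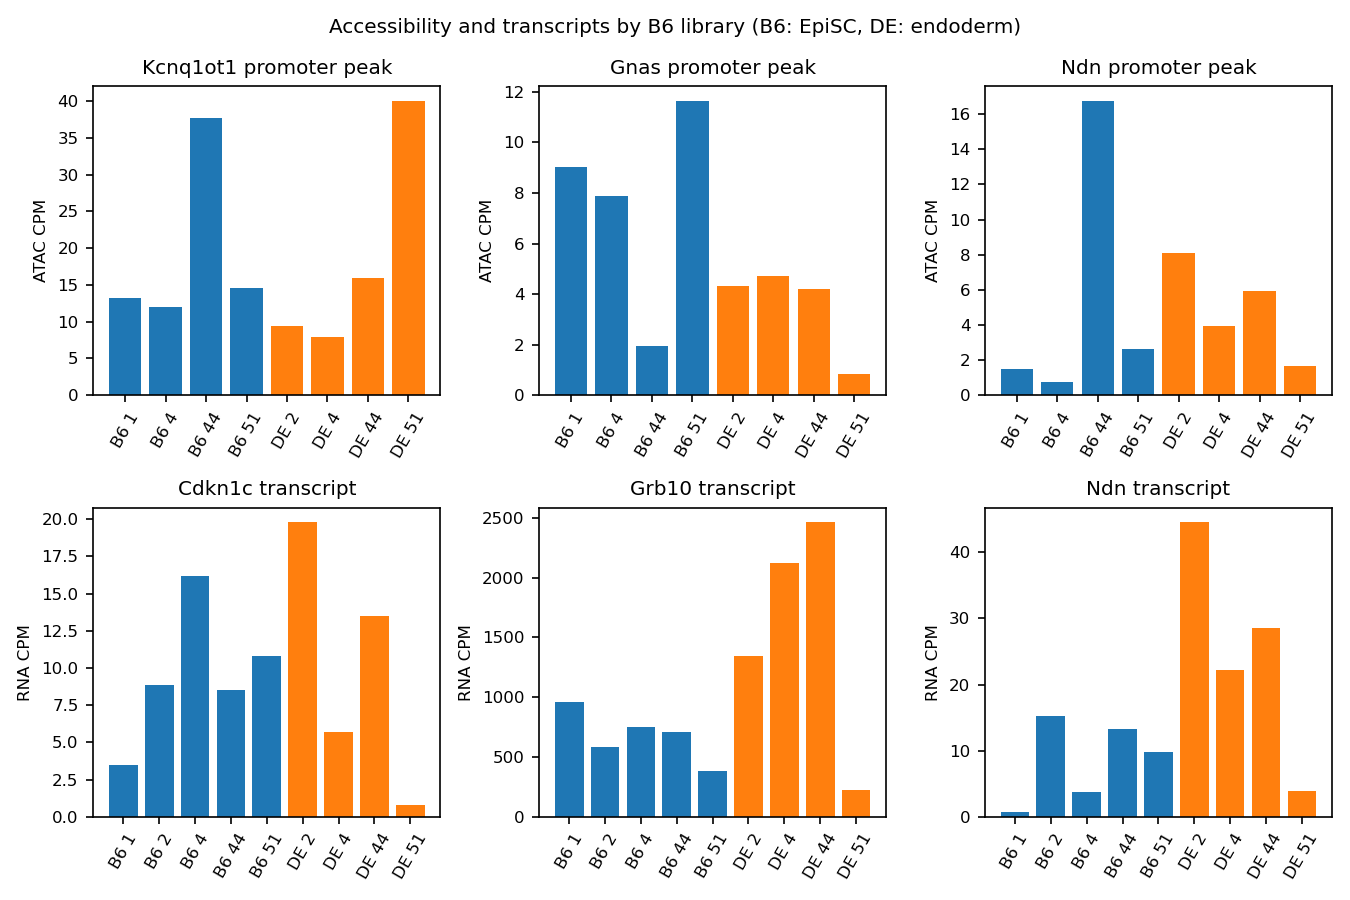
Upper panels: ATAC-seq CPM of the peaks at the Kcnq1ot1, Gnas and Ndn promoters in 4 EpiSC libraries (blue) and 4 DE libraries (orange) of B6. Lower panels: RNA CPM of Cdkn1c, Grb10 and Ndn in 5 EpiSC and 4 DE libraries. DE replicate 51 is highest at the Kcnq1ot1 promoter (40.0) and lowest for Cdkn1c (0.799), Grb10 (227) and Ndn (3.95) RNA.

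The table of EpiSC peaks held 4 B6, 2 PWK and 1 DBA libraries, with 62 peaks near 34 of the genes. Of 56 tested between PWK and B6, 0 were higher and 2 lower, beside 1.42% and 3.68% of all peaks, while leaving out B6 replicate 44 gave 2 higher. A peak in Slc22a18 (chr7:143474922-143475109) measured 6.64, 5.48, 6.50 and 10.0 CPM in B6 and 2.29 and 1.19 CPM in PWK, with a log2 change of -2.06 ± 0.46 (SE) and an edgeR adjusted p of 0.0169. A peak upstream of Meg3 (chr12:109539223-109539352) measured 3.86, 3.93, 7.74 and 3.65 CPM in B6 and 1.06 and 0.755 CPM in PWK, with a log2 change of -2.37 ± 0.59 (SE) and an edgeR adjusted p of 0.0291. Both calls were lost without the unnumbered PWK library or without B6 replicate 1, the Slc22a18 call also without B6 replicate 51 and the Meg3 call without B6 replicate 4 or 44. The DBA library measured 14.2 CPM at the Meg3 peak, above all B6 and PWK libraries, and 20.5 CPM at the Plagl1 promoter, against 5.71 to 14.9 CPM in B6 and 7.33 to 7.92 CPM in PWK. It was at 1.85 CPM at the upstream Gnas promoter, against 2.00 to 12.0 CPM in B6, and at 19 CPM at the Ndn promoter, against 0.828 to 17.5 CPM. The Kcnq1ot1 promoter measured 13.4, 12.8, 38.7 and 15.1 CPM in B6, 42.4 and 29.4 CPM in PWK and 34.1 CPM in DBA, with a PWK minus B6 log2 change of 0.89 ± 0.35 (SE) and an edgeR adjusted p of 0.194. For Plagl1 and Ndn, the DBA library was thus above the B6 range in both promoter accessibility and transcript, each from 1 library. The same held at Magel2, Peg3, Zrsr1 and Zim1, so it was not particular to Plagl1 and Ndn. At Snrpn and Inpp5f the transcript was above the B6 range and the promoter peak was not.

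Other imprinted genes and a list named imprint maintenance were counted in the same fits. That list also holds enzymes that add methyl groups to DNA or oxidise them, among them Dnmt3a, Tet1 and Tet2. Over all genes tested, 31.5% were called higher and 30.6% lower in DE, and 12.0% and 14.5% in PWK against B6. The shares were 1.34% and 1.50% in B6.129 F1 against B6, and 20.7% and 19.4% in PWK against B6.129 F1. Of 28 tested genes in a list of 38 further imprinted genes, 13 rose and 6 fell in DE. Their median log2 change was 0.27, against -0.01 over all genes. Th, the enzyme that starts catecholamine synthesis, rose by a log2 change of 5.91 ± 0.80 (SE) and Ddc, which makes dopamine and serotonin, by 3.90 ± 0.42. Th averaged 12.8 CPM in DE and 0.213 CPM in B6 EpiSCs, so its fold rests on low EpiSC counts. Atp10a, a phospholipid flippase, averaged 0.0788 CPM in DE and 27.1 CPM in B6 EpiSCs. At that DE level it could pass the filter on low counts only through EpiSCs, so it could enter the test only with a difference. It is counted among the 6 that fell, and no fold is given. Zdbf2 had a log2 change of -4.83 ± 0.33. PWK against B6 gave 4 higher and 2 lower in this list, led by Begain (1.07 ± 0.34) and Calcr, the calcitonin receptor (1.04 ± 0.20), and by Smoc1 (-1.13 ± 0.30) and Commd1 (-0.30 ± 0.07). B6.129 F1 against B6 gave 0 higher and 1 lower, the tetraspanin gene Cd81 (-0.62 ± 0.12). PWK against B6.129 F1 gave 9 higher and 4 lower, led by Pon3 (5.11 ± 1.22) and the collagen-binding proteoglycan Dcn (4.42 ± 0.96), and by Sfmbt2 (-1.14 ± 0.41) and Zdbf2 (-0.86 ± 0.25), beside fibroblast sums of 4969 to 6530 and 389 to 586 CPM. Pon3 averaged 3.86 CPM in PWK and 0.108 CPM in B6.129 F1, so its fold rests on low B6.129 F1 counts. Of 18 tested genes of the imprint maintenance list, 2 rose and 14 fell in DE, with a median of -0.90 against -0.01 over all genes. The methylcytosine oxidase Tet1 had a log2 change of -2.86 ± 0.31 and the methyltransferase Dnmt3a of -2.72 ± 0.26, while Tet2 rose by 3.50 ± 0.88 and the chromatin factor Arid4b by 1.03 ± 0.21. Between PWK and B6, 2 of 19 were higher, Dnmt3a (0.36 ± 0.06) and Smchd1 (0.22 ± 0.07), and 1 lower. Zfp57, which protects methylation at imprint control regions, measured 32.9 ± 3.37 CPM (SD) across the 3 PWK libraries against 67.5 ± 15.3 CPM (SD) across the 5 B6 libraries, with a log2 change of -1.03 ± 0.18 (SE) and an edgeR adjusted p of 0.00189. Against B6.129 F1, at 107 ± 13.8 CPM (SD, n = 3), it was -1.68 ± 0.20, edgeR adjusted p = 0.000160. PWK against B6.129 F1 gave 2 higher and 4 lower of the 19, led further by Dnmt3a (0.57 ± 0.07) and by the helicase Hells (-0.51 ± 0.18). Zfp445, a partner of Zfp57 in imprint protection, was the other higher gene, with no fold given because B6.129 F1 libraries were at 0 counts.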

How the data were processed

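RNA-seq (poly(A)-selected, stranded) and ATAC-seq were deposited as tables of raw counts per Ensembl gene and per peak, with 1 peak set per table. The submitters' processing notes name mm10, Salmon, featureCounts and DESeq2 for RNA-seq and mm10, fastp, Bowtie2, MACS2, featureCounts and DESeq2 for ATAC-seq, with no role, setting or version. Whether counting used strand is not given in the sources used here. Symbols, positions and promoters came from RefSeq tables of GRCm38.p6, and 29270 of 29555 gene identifiers matched a symbol.

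The members and lists were chosen with earlier results of these data known. The labels' strain and cell state set the groups. Of 30 samples, 3 of PWK DE are not analysed here (no column matched), and 17 columns of other series were not used. For PWK and B6.129 F1, 1 column each bears no replicate number of the labels and was placed by its strain. No 2 libraries of a group agreed within sampling noise (smallest chi-square per gene 10.2 over 22 RNA pairs).

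Tests used edgeR 4.0.16 with limma 3.58.1 in R 4.3.3: TMM scaling, filterByExpr, robust quasi-likelihood fits over all genes or peaks, Benjamini-Hochberg adjustment over all of them and a threshold of 0.05. The B6 comparison used 9 libraries, and the strain comparisons 1 fit to 11. Standard errors were the log2 change divided by the square root of F. The DBA library and the ranges within groups were described with no test, with a floor of 3 counts. Fits were tested on simulated data. Alternatives were RLE scaling, total library size, other filters, DESeq2 1.42.0, each library left out, the replicate number as a block, and, added after the data were seen, replicates 2 and 44 alone, replicates 4 and 51 alone (whose DE libraries were over 2-fold deeper than their EpiSC libraries) and a fibroblast covariate. Depth was 22829536 to 66563933 counts for RNA and 3751526 to 9571127 for ATAC.

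Values in every library are given for genes called between strains, called in DE with a log2 change over 2 in size, or with a 4-fold range among B6 EpiSCs, the rest by range. From other lists the 2 genes with the largest change in each direction are named, and for peaks the most significant called one of each gene so named.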

Additional observations from a re-analysis of the deposited data

Results flagged for a closer look

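In groups of 4 or 5 libraries, 59 gene and group pairs were examined for a library far from the rest of its group, of which chance would mark about 1 in 20, and 3 were marked. Inpp5f in B6 EpiSC replicate 2 was 37.9 CPM, with the other 4 libraries between 53.3 and 56.6. Nnat in DE replicate 44 was 13.9 CPM, with the other 3 between 1.67 and 3.27. Zrsr1 in DE replicate 4 was 3.35 CPM, with the other 3 between 0 and 0.550.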

How the results depend on the processing

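No result reversed direction under any alternative run. Leaving out single libraries gave 9 to 12 imprinted genes higher and 6 to 8 lower in DE, 3 to 6 and 3 to 6 in PWK against B6, 0 to 2 and 0 to 3 in B6.129 F1 against B6, 9 and 4 to 6 in PWK against B6.129 F1, 5 to 7 with a 4-fold range in B6 EpiSCs, and 4 to 10 in DE. For peaks it gave 4 to 9 higher and 5 to 11 lower in DE, and 0 to 2 and 0 to 2 in PWK. A range of 2-fold in place of 4-fold held 18 imprinted genes in B6 EpiSCs, 21 in DE, 2 in PWK and 3 in B6.129 F1, and one of 8-fold held 2 in B6 EpiSCs. The median range of all genes with enough counts was 1.54-fold in B6 EpiSCs, 2.085-fold in DE, 1.16-fold in PWK and 1.21-fold in B6.129 F1. The groups differ in their number of libraries, and more libraries can span a wider range. With DE and EpiSC replicates 4 and 51 alone 5 genes were lower. With the fibroblast covariate PWK gave 3 higher and 3 lower against B6 and 2 and 2 against B6.129 F1, and a fit to PWK and B6.129 F1 alone gave 8 lower. In B6.129 F1 against B6, a minimum of 10 counts in every library gave 1 higher, and DESeq2 gave 1 higher and 4 lower. For DE peaks, a window of 500 bases gave 6 higher, total library size 5 higher, and a minimum of 10 counts in every library 3 lower. For PWK peaks, the 500-base window gave 0 lower and the minimum of 10 counts 1 lower. Shares over all genes or peaks under these alternatives are not given here, so the counts cannot be set against other genes or peaks. The cause of these shifts was not tested.

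Replicate numbers 2, 4, 44 and 51 are present in both B6 states, and the correlation of deviations from the group means across genes was 0.0994, 0.137, 0.283 and 0.269, each library correlating best with its own number, a hint from the data and not from the design. With the replicate number as a block, DE counts became 11 higher and 8 lower for the imprinted genes, and for peaks 5 higher and 3 lower. The same libraries with no block gave 11 and 7 genes, and 5 higher peaks. With the block Peg3 was called higher (log2 change 1.10, adjusted p = 0.00430) and Igf2 lower (-1.03, 0.0430) in DE. Those libraries with no block also called Peg3 (1.11, 0.0376) but not Igf2. No paired analysis was possible for strains because they share fewer than 2 replicate numbers. Low counts limit Zim1, Dio3, Rtl1, Slc22a18, Zrsr1 and PWK Asb4.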
